A study of Mus musculus with 6 samples.

Results

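Complement transcripts were followed in ribosome-bound mRNA of mouse brain as 6 genes taken by name: C1qa, C1qb and C1qc, which encode the chains of C1q, C3 and C4b, which encode the central proteins that the cascade cuts, and Serping1, which encodes the C1 inhibitor. All 6 were found among the 26264 genes of the expression table. Per the labels, the tagged ribosomes came from brains of Gfap-Cre; RiboTag mice, a genotype that all groups share. Cre under the promoter of the astrocyte gene Gfap switches on an HA-tagged ribosomal protein, and an antibody against the tag pulls down the ribosomes with their mRNA. Mice ate a diet with PLX5622 at 1200 ppm or a control diet for 1 month, with 3 libraries on PLX5622 and 3 on control diet. PLX5622 inhibits Csf1r, a receptor that microglia need to survive. The labels describe the captured RNA as astrocyte RNA with some from neurons and oligodendrocytes, so microglial RNA is not the intended target of the pulldown. By summed marker levels astrocyte transcripts led: the 16 astrocyte list genes summed to 43685 to 48570 TPM with the PLX5622 label, against 27247 to 38596 TPM with the control label, the 14 oligodendrocyte genes to 3322 to 4361 TPM, against 3618 to 4760 TPM, and the 15 neuron genes to 1481 to 2185 TPM, against 2321 to 2760 TPM.

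Complement is a cascade of blood and tissue proteins that tags targets for removal. C1q recognises the target and activates the proteases C1r and C1s, which cut C4 and C2. The products of those cuts form an enzyme that cleaves C3, and fragments of C3 are read by receptors on phagocytes. In brain, microglia are the main source of C1q and carry complement receptors, while astrocytes make C4 and, when activated, C3 and Serping1. In the developing mouse brain C1q and C3 take part in the removal of synapses by microglia.

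Levels are given in TPM, a length-scaled share of the library that the authors computed. The number of genes at 1 TPM or more ranged from 12871 to 13181 over the libraries; the unit carries no record of sequencing depth. The authors' mean normalized count per library (baseMean), from their deposited table, gives the scale: 67.4 for C3, 104 for C1qc, 125 for C1qa, 142 for Serping1, 149 for C1qb and 7455 for C4b. The 6 members' own exons overlapped no other annotated gene, so the missing strand information of these libraries does not touch them. C4b has a near-identical neighbour, C4a, which lay between 0.0195 and 0.120 TPM. How shared reads of C4a and C4b were counted is not given in the sources used here.

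The summed microglial transcripts went against the diet label of control 3, while PLX5622 3 lay between the other libraries of the 2 labels. The 20 microglia list genes summed to 7.85 TPM in control 3, against 72.0 and 47.6 TPM in control 1 and 2. In PLX5622 3 they summed to 25.5 TPM, against 12.4 and 3.62 TPM in PLX5622 1 and 2. Tmem119, a surface protein of microglia, measured 0.617, 0.0761 and 1.48 TPM in the libraries labelled PLX5622 1, 2 and 3, against 3.02, 2.03 and 0.151 TPM in those labelled control 1, 2 and 3. The authors' deposited log2 fold changes also did not follow the column headings. The genes compared had a baseMean of at least 50 and a TPM above 0 in every library, which leaves out C1qb and C1qc. Over these 13191 genes, the median gap to the log2 ratio of mean TPM was 0.189 by label. It was 0.0465 once control 3 and PLX5622 3 traded places. The deposited fold changes were thus closer to a comparison of the libraries labelled PLX5622 1, PLX5622 2 and control 3 with those labelled PLX5622 3, control 1 and control 2. Which of the headings is right is not known here. Values are given by label, and the authors' values apart from them.

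C1q transcripts were the most variable of the members, and the highest levels were in control-labelled libraries. C1qb, the B chain, had 2.23, 0 and 3.87 TPM in the libraries labelled PLX5622 1, 2 and 3, against 19.3, 9.87 and 0.832 TPM in those labelled control 1, 2 and 3. C1qa, the A chain, had 2.18, 0.0746 and 3.07 TPM with the PLX5622 label, against 16.2, 8.83 and 0.764 TPM with the control label. C1qc, the C chain, had 1.54, 0 and 3.16 TPM with the PLX5622 label, against 13.9, 7.06 and 0.741 TPM with the control label. All 3 chains thus stood highest in control 1 and then control 2, and the groups overlapped because control 3 lay below PLX5622 1 and PLX5622 3. In these pulldowns, fewer cells of a type, less RNA per cell and less untargeted RNA in the pulldown cannot be told apart.

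**Figure D1:**
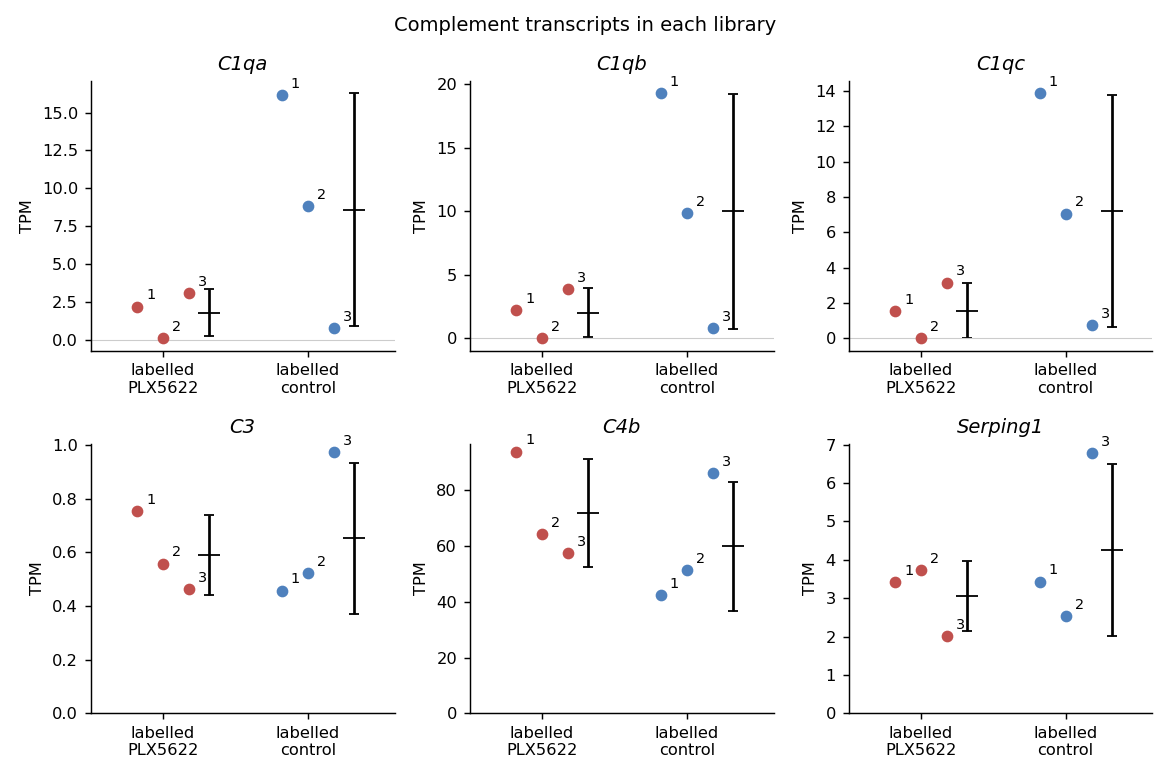
Level of each complement gene in TPM (vertical axis, from 0) in the 3 libraries labelled PLX5622 (red, left) and the 3 labelled control (blue, right), with replicate numbers beside the points and black marks for mean ± SD. The C1q chains are highest in control 1 and control 2 and low in control 3, where C3 (0.974 TPM) and Serping1 (6.79 TPM) are at their highest.

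By label, the C1q chains did not pass the test. C1qb averaged 2.03 ± 1.94 TPM in PLX5622-labelled libraries and 9.997 ± 9.23 TPM in control-labelled ones (SD, n = 3 each). Its difference on the log2(TPM + 1) scale was −1.56 ± 0.82 (SE), with limma adjusted p = 0.267. C1qa and C1qc differed by −1.47 ± 0.76 and −1.44 ± 0.73 (limma adjusted p = 0.261 and 0.255). Over all genes limma called 0 of 13084 by label (0%), while 2974 (22.7%) had an unadjusted p under 0.05. Of the 5 complement members tested, 0 were called and 0 had an unadjusted p under 0.05. C3 was under the minimum mean of 1 TPM and was not in that fit.

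Libraries of the same label differed widely. C1qb was 23.2-fold higher in control 1 than in control 3, and C1qa 21.2-fold. Without the library labelled control 1 the C1qb difference was −0.83 on the log2(TPM + 1) scale, and without control 3 it was −2.57. With both libraries numbered 3 left out, it was −3.05 ± 0.44 (SE), and all 3 C1q chains were called lower (limma adjusted p = 0.0151 to 0.0161) beside 12 of 13062 genes called lower (0.0919%), 2 called higher (0.0153%) and 14 in all (0.107%). Those libraries were left out with their microglial transcripts known, so these calls are no separate evidence. Leaving out control 2 alone gave 2600 of 13081 genes called higher (19.9%) and 1154 lower (8.82%), 3754 in all (28.7%), and leaving out PLX5622 1 alone gave 1 of 13070 higher (0.00765%) and 35 lower (0.268%), 36 in all (0.275%). No complement member was among them in either case.

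The authors' deposited table gave the C1q chains log2 fold changes of −3.37 for C1qa (SE 1.23), −3.59 for C1qb (SE 1.64) and −3.55 for C1qc (SE 1.54). None passed its adjusted threshold (DESeq2 adjusted p = 1.00 for each), against 14 of 20062 genes called lower (0.0698%) and 0 called higher. Their unadjusted DESeq2 p-values in that table were 0.00620, 0.0287 and 0.0209. In the libraries labelled PLX5622 1, PLX5622 2 and control 3, C1qa lay between 0.0746 and 2.18 TPM, and in the other 3 between 3.07 and 16.2 TPM. The library labelled PLX5622 3 was the lowest of those 3 for all 3 chains.

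**Figure D2:**
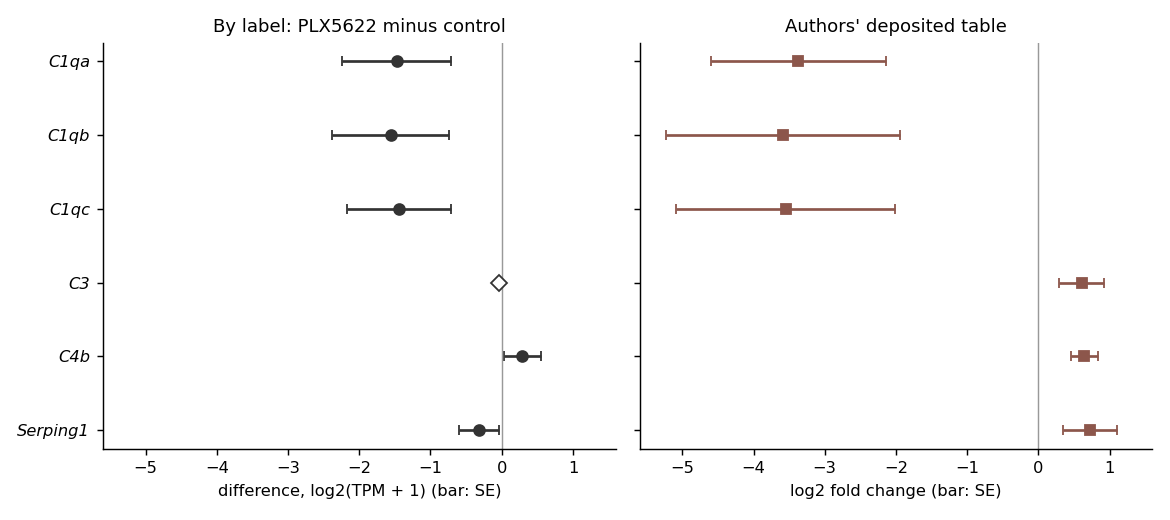
Difference of each complement gene in log2 units (horizontal axis) with SE as bars: left, libraries labelled PLX5622 minus those labelled control on log2(TPM + 1); right, the authors' deposited log2 fold change. The open diamond marks C3, which was under the expression minimum and has no SE; C3 and Serping1 are negative by label (−0.044 and −0.32) and positive in the authors' table (0.61 and 0.72).

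The chains kept a steady proportion to each other while their sum changed. Together they summed to 5.95, 0.0746 and 10.1 TPM in PLX5622 1, 2 and 3, against 49.3, 25.8 and 2.34 TPM in control 1, 2 and 3. C1qb made up 37.5% and 38.3% of the sum in PLX5622 1 and 3, against 39.1%, 38.3% and 35.6% in control 1, 2 and 3. C1qc made up 25.9% and 31.2% in PLX5622 1 and 3, against 28.1%, 27.4% and 31.7% in the controls in the same order. In PLX5622 2 only C1qa was above 0, and no proportion can be read there. TPM are scaled by transcript length, so these are proportions of transcripts and not of reads.

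The summed microglial transcripts ranked the libraries as C1q did, though not every gene of the list varied as widely. The 20 microglia list genes summed to 12.4, 3.62 and 25.5 TPM in PLX5622 1, 2 and 3, against 72.0, 47.6 and 7.85 TPM in control 1, 2 and 3. Csf1r, the target of the drug, measured 0.811, 0.0208 and 2.05 TPM in PLX5622 1, 2 and 3, against 4.33, 4.27 and 0.118 TPM in control 1, 2 and 3. The order of the 6 libraries was the same for this sum and for the C1q sum. P2ry12, a purine receptor of microglia, varied little, with 1.97, 1.45 and 2.23 TPM in PLX5622 1, 2 and 3, against 2.48, 2.40 and 1.45 TPM in control 1, 2 and 3. Olfml3 and Ptprc varied 2.63-fold and 3.53-fold over the 6 libraries and P2ry12 1.70-fold. In PLX5622 2, P2ry12 and Olfml3, at 1.45 and 1.28 TPM, made up most of the list's sum. Cx3cr1, Ctss, Fcrls, Fcer1g, Siglech and Gpr34 were listed at 0 in PLX5622 2, Gpr34 also in PLX5622 1, and none of the 20 was at 0 in the other 4 libraries. All 13 of these genes that were tested were negative by label, with a median of −0.83 on the log2(TPM + 1) scale, 0 of them called, beside 5084 negative of 13084 tested genes and a median of 0.089 over all. In the authors' deposited table all 20 were negative, with a median log2 fold change of −3.14, and 6 of them were among the 14 genes called lower. Per TPM of that list, C1q amounted to 0.478, 0.0206 and 0.396 TPM in PLX5622 1, 2 and 3, against 0.685, 0.541 and 0.298 TPM in control 1, 2 and 3, a ratio chosen after the values were seen. The 11 border macrophage genes, whose cells also make C1q, summed to 1.88 to 3.50 TPM with the PLX5622 label, against 4.90 to 58.8 TPM with the control label. The sum of 58.8 TPM was in control 3, where the antigen presentation genes Cd74, H2-Aa and H2-Ab1 were at 27.0, 11.4 and 20.2 TPM. Of this list, Mrc1, Cd163 and Lyve1 were highest in PLX5622 3, at 0.0893, 0.0925 and 0.114 TPM. In control 3 they were at 0.0345, 0.0818 and 0.0705 TPM. Pf4 was at 0, 0.0687 and 0.404 TPM in PLX5622 1, 2 and 3, against 0.713, 0.0762 and 0 TPM in control 1, 2 and 3. F13a1 and Ms4a7 were also highest in control 1, at 0.107 and 0.0977 TPM, and at 0 in control 3. In PLX5622 3 they were at 0.106 and 0.0692 TPM. Cbr2 was highest in control 1 at 0.328 TPM, with 0.0899 TPM in control 3. Cd209f was highest in control 2 at 0.121 TPM. The order of the libraries thus differed between genes of this list. The authors' deposited table held 10 genes of the list, 8 negative and 2 positive, with a median log2 fold change of −1.81 and 0 called. The part of microglial or macrophage RNA in the C1q values was not tested.

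**Figure D3:**
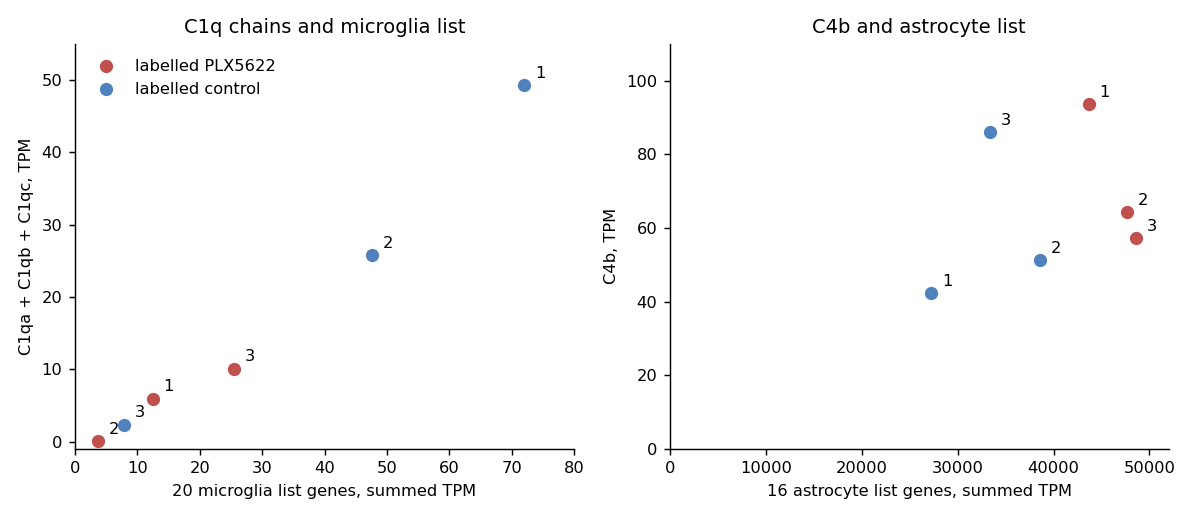
Left, summed C1q chains against 20 summed microglia list genes; right, C4b against 16 summed astrocyte list genes; all in TPM, 1 point per library, red for the PLX5622 label and blue for the control label, with replicate numbers. C1q follows the microglia sum across the 6 libraries, whereas C4b is highest in PLX5622 1 and control 3, at astrocyte sums of 43685 and 33344 TPM.

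Among 12428 other tested genes, the patterns closest to the C1q chains across the 6 libraries were those of Ctss, Trem2 and Tyrobp. Closeness was the root mean square difference of log2(TPM + 1) after the mean of each gene was taken off. Ctss, the lysosomal protease cathepsin S, lay 0.057 log2 units from C1qc, 0.13 from C1qa and 0.18 from C1qb. The chains lay 0.13 to 0.17 from each other, so Ctss was about as close to them as they were to one another. Trem2, a lipid-sensing receptor of microglia, and Tyrobp, its signalling adaptor, lay 0.38 and 0.39 from C1qc. From C4b, in contrast, the C1q chains lay 1.63 to 1.78 log2 units away, from C3 1.41 to 1.56 and from Serping1 1.55 to 1.71. The chains' own SD over the libraries was 1.44 to 1.61, so these distances largely restate how widely the chains varied.

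The C1q genes lie side by side on mouse chromosome 4, in the order C1qb, C1qc, C1qa with no protein-coding gene between them in RefSeq. Because the chains moved together, the 250 bases before the RefSeq start of C1qb and C1qc are shown (build GRCm38.p6, minus strand, 5′ to 3′), with the same stretch of C3, which did not follow them. C1qb lies at chr4:136886201-136886450, C1qc at chr4:136892915-136893164 and C3 at chr17:57228137-57228386 in that build, which is not the mm39 build of the data. Capitals mark GAGGAA, the core of sites bound by the myeloid factor PU.1, on either strand in C1qb and C1qc, and TTGNGNAA, a C/EBP-type motif, on either strand in C3.
C1qb: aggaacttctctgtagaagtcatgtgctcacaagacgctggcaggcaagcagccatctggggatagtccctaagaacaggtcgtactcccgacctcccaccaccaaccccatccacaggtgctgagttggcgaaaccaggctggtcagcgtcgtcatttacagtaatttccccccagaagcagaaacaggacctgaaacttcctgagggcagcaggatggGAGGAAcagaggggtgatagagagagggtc
C1qc: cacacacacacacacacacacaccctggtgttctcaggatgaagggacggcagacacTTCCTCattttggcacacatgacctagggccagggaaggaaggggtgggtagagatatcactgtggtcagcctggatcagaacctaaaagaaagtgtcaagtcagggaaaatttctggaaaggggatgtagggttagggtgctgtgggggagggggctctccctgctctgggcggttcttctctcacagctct
C3: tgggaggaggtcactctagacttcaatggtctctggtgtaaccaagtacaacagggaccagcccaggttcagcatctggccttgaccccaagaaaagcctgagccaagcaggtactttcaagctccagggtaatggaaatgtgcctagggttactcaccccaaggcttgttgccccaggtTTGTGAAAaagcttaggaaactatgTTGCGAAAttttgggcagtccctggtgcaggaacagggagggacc
GAGGAA began 30 bases before the start of C1qb, and its reverse complement TTCCTC 193 bases before the start of C1qc, while the C3 stretch held none. It occurs on either strand in 23.3% of 32851 stretches of this length in the table, so its presence here is a description only. TTGNGNAA, present in 11.7% of all stretches, began 70 and 45 bases before the start of C3 and was in neither C1q stretch. The STAT-type motif TTCNNNGAA (7.02% of all) and the interferon-type motif made of 2 GAAA units 2 bases apart (2.98%) were not in these letters of the 3 genes. The motifs were chosen after the sequences were seen, and no 2 matches overlap.

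C4b was by far the most abundant member. It encodes the mouse C4 protein, cut by C1s in the classical pathway. C4b had 93.7, 64.2 and 57.3 TPM in PLX5622 1, 2 and 3, against 42.3, 51.3 and 86.0 TPM in control 1, 2 and 3. PLX5622 1 and control 3 were the highest and control 1 the lowest, so the groups overlapped. The means were 71.7 ± 19.3 TPM with the PLX5622 label and 59.9 ± 23.1 TPM with the control label (SD, n = 3 each). The difference of 0.29 ± 0.26 (log2(TPM + 1), SE) was not called (limma adjusted p = 0.487). It was 0.077 without control 1, 0.083 without PLX5622 1, 0.58 without control 3, 0.18 with median-of-ratios size factors, and 0.14 after a loess correction on transcript length.

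C4b had a positive value in the authors' deposited table, where the C1q chains were negative. Its deposited log2 fold change was 0.65 (SE 0.19, 95% interval 0.28 to 1.02), with an unadjusted DESeq2 p of 0.000622, which ranks 27 of 20062, and an adjusted p of 0.462, so it was not called. Of the members, 4 of 6 had an unadjusted p under 0.05 in that table, beside 170 of all genes (0.847%): the 3 C1q chains lower, as were 126 genes (0.628%), and C4b higher, as were 44 genes (0.219%). Since the genes were listed with earlier results of these data known, these counts describe them and are no test of the group. Across PLX5622 1, PLX5622 2 and control 3, C4b lay between 64.2 and 93.7 TPM, and in the other 3 between 42.3 and 57.3 TPM.

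Astrocyte transcripts were higher with the PLX5622 label, though none passed the test: all 16 list genes were positive, with a median of 0.50 on the log2(TPM + 1) scale, beside 8000 positive of 13084 tested genes and a median of 0.089 over all. The neuron list ran the other way by label, negative for 14 of its 15 genes (median −0.54). The authors' deposited table had 12 astrocyte genes positive and 4 negative, with a median log2 fold change of 0.083, and all 15 neuron genes negative, with a median of −0.19. The 16 astrocyte list genes summed to 43685, 47677 and 48570 TPM in PLX5622 1, 2 and 3, against 27247, 38596 and 33344 TPM in control 1, 2 and 3. Per 1000 TPM of that list, a scaling chosen after the values were seen, C4b was at 2.14, 1.35 and 1.18 TPM in PLX5622 1, 2 and 3, against 1.55, 1.33 and 2.58 TPM in control 1, 2 and 3. On this scale the labelled difference had the opposite sign, −0.21 in log2 (exact two-sided permutation p = 0.6; the smallest possible with 3 against 3 is 0.1). The direction of C4b by label thus depends on the scale, and the part of astrocyte RNA in it was not tested.

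The genes closest to C4b in pattern were Aspg, Lgals3bp and Osmr, at 0.13, 0.15 and 0.15 log2 units. Aspg, an asparaginase induced in reactive astrocytes, had 5.40, 3.65 and 3.72 TPM in PLX5622 1, 2 and 3, against 2.18, 3.45 and 4.82 TPM in control 1, 2 and 3. Osmr, the receptor of oncostatin M and another reactive astrocyte gene, had 3.75, 2.53 and 2.69 TPM with the PLX5622 label, against 1.59, 2.51 and 3.52 TPM with the control label. Lgals3bp, a secreted galectin-binding protein, had 109 TPM in both PLX5622 1 and control 3 and between 64.8 and 75.4 TPM in the other 4. Like C4b, these genes had PLX5622 1 and control 3 as their highest libraries. The measure says nothing of shared control.

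**Figure D4:**
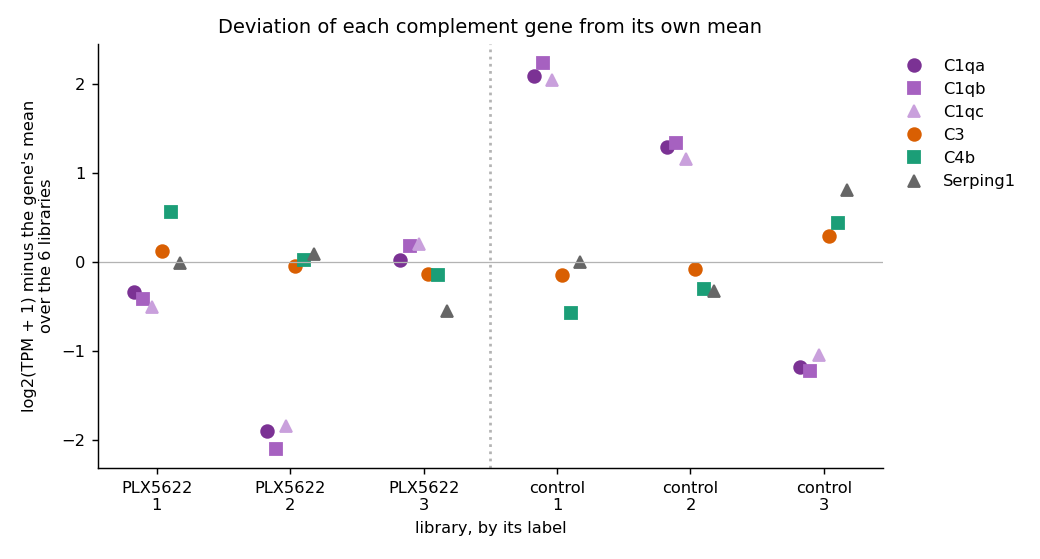
Deviation of each member from its own mean over the 6 libraries, in log2(TPM + 1) (vertical axis), by library label (horizontal axis, PLX5622 left of the dotted line). The C1q chains spread over about the whole axis and sit together in every library, and in control 3 they are low while C3, C4b and Serping1 are above their means.

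C3, the protein on which all routes of activation converge, was under 1 TPM in every library. It had 0.754, 0.558 and 0.462 TPM in PLX5622 1, 2 and 3, against 0.457, 0.523 and 0.974 TPM in control 1, 2 and 3. The groups overlapped, with control 3 highest and control 1 and PLX5622 3 lowest. Its difference by label was −0.044 on the log2(TPM + 1) scale (exact two-sided permutation p = 0.9), a scale that understates changes of so low a gene. The authors' deposited log2 fold change was 0.61 (SE 0.32, 95% interval −0.017 to 1.23), which was not called (DESeq2 adjusted p = 1.00). C3 was thus at 0.591 ± 0.149 TPM with the PLX5622 label and 0.651 ± 0.281 TPM with the control label (SD, n = 3 each), far below C4b on the same length-scaled unit. Across PLX5622 1, PLX5622 2 and control 3 it lay between 0.558 and 0.974 TPM, and in the other 3 libraries between 0.457 and 0.523 TPM. Its closest genes in pattern were Trim47, Hmox1 and Neil1, within 0.046 log2 units, which at so small a spread (SD 0.17 over the libraries) distinguishes little.

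Serping1, the serine protease inhibitor that blocks C1r and C1s, was highest in a control-labelled library. It had 3.42, 3.73 and 2.02 TPM in PLX5622 1, 2 and 3, against 3.43, 2.54 and 6.79 TPM in control 1, 2 and 3. Control 3 stood alone at the top and the other 5 libraries overlapped. Without control 3 the difference of −0.32 ± 0.28 (log2(TPM + 1), SE; limma adjusted p = 0.483) became 0.0086 ± 0.23. It was 0.21 without both libraries numbered 3, and −0.91 in log2 per 1000 TPM of the astrocyte list (exact two-sided permutation p = 0.3). The authors' deposited log2 fold change was 0.72 (SE 0.38, 95% interval −0.014 to 1.46), not called (DESeq2 adjusted p = 1.00). On the log2(TPM + 1) scale the sign of Serping1 by label therefore rests on the library labelled control 3. Per 1000 TPM of the astrocyte list, Serping1 was at 0.0784, 0.0782 and 0.0417 TPM in PLX5622 1, 2 and 3. In control 1, 2 and 3 it was at 0.126, 0.0657 and 0.204 TPM, and no difference without control 3 was computed on that scale.

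Several genes named after their values were seen were also highest in control 3. Gbp2, an interferon-induced GTPase, was at 3.88, 3.48 and 2.51 TPM in PLX5622 1, 2 and 3, against 1.91, 2.90 and 14.3 TPM in control 1, 2 and 3. Psmb8, an immunoproteasome subunit, was at 7.66, 4.59 and 4.42 TPM with the PLX5622 label, against 7.10, 4.47 and 30.9 TPM with the control label. Cd74, the MHC class II chaperone, was at 27.0 TPM in control 3 and at most 2.40 TPM in the other 5 libraries. No list of such genes was tested. Of 12428 genes, Ifit1, an interferon-induced antiviral gene, came closest to Serping1 in pattern (0.13 log2 units), with 2.38 TPM in control 3 and 0.518 to 1.01 TPM elsewhere, followed by Serpina3n, a reactive astrocyte marker, and Tspan4 (0.14 and 0.15). Serpina3n had 26.6, 29.0 and 17.7 TPM in PLX5622 1, 2 and 3, against 20.2, 18.5 and 43.9 TPM in control 1, 2 and 3. The part of these transcripts in the Serping1 values was not tested.

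Fibroblasts and endothelial cells can also make C4b and Serping1. Their list genes summed to 168 to 225 TPM (fibroblasts, 10 genes) and 6.01 to 7.46 TPM (endothelium, 10 genes) with the PLX5622 label, against 239 to 278 TPM and 8.02 to 8.70 TPM with the control label. Apod, which oligodendrocytes also express, made up 119 to 239 TPM of the fibroblast sum. Control 3, where Serping1 was highest, had 242 TPM for fibroblasts and 8.21 TPM for endothelium, inside the range of the other control-labelled libraries. The part of these cells in the values was not tested.

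The reactive astrocyte list, which also describes cells in which C3 and Serping1 are known to rise, was not called by label. Of 24 genes 20 were tested, 0 were called, and 7 were positive, with a median of −0.077 on the log2(TPM + 1) scale, against 8000 positive of 13084 over all. Gfap, the filament protein that marks astrocyte reactivity, was at 1923, 1824 and 1283 TPM in PLX5622 1, 2 and 3, against 518, 1109 and 1393 TPM in control 1, 2 and 3 (difference 0.83 ± 0.33, log2(TPM + 1), SE; limma adjusted p = 0.205). Vim, another filament protein, Tspo and H2-D1 differed by 0.26 ± 0.15, −0.11 ± 0.12 and −0.67 ± 0.32 (limma adjusted p = 0.301, 0.584 and 0.239). The authors' deposited table had 23 of the listed genes, of which 21 were positive and 0 were called, with a median of 0.52, beside −0.017 over its 20062 genes.

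The signals by which microglia are known to induce C3 and Serping1 in astrocytes, Il1a, Tnf and C1q itself, were scarce outside the C1q chains. Il1a was at 0, 0 and 0.0602 TPM in PLX5622 1, 2 and 3, against 0.149, 0.0681 and 0 TPM in control 1, 2 and 3. Tnf was above 0 in PLX5622 1 alone, at 0.0317 TPM. Tgfb1, the only gene of this 9-gene list with a mean of at least 0.1 TPM, averaged 0.764 ± 0.132 TPM with the PLX5622 label and 1.14 ± 0.111 TPM with the control label (SD, n = 3 each). Its groups did not overlap, as was the case for 1229 (9.39%) of tested genes in that direction. It lay under the minimum for the fit.

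Other genes of complement activation were mostly below 1 TPM, and the list was not called. Of 25 genes 5 passed the minimum, 0 were called, 4 were positive and the median was 0.20, beside 0.089 over all tested genes. The proteases C1ra and C1s1, through which C1q acts, were at 0.194 to 0.341 and 0.0398 to 0.175 TPM with the PLX5622 label, against 0.487 to 0.898 and 0.0983 to 0.415 TPM with the control label, so the groups overlapped for C1s1 and not for C1ra. Among tested genes, 1229 (9.39%) did not overlap with the PLX5622 label below, and C1ra itself lay under the minimum for the fit. C1ra and C1s1 have close copies, C1rb and C1s2, so their counts are uncertain. Masp1, a protease of the lectin pathway, was at 11.3, 13.7 and 12.8 TPM in PLX5622 1, 2 and 3, against 8.47, 10.1 and 9.44 TPM in control 1, 2 and 3. Its groups did not overlap, as for 2534 (19.4%) of tested genes in that direction, and its difference of 0.39 ± 0.14 (log2(TPM + 1), SE) was not called (limma adjusted p = 0.205). The authors' deposited log2 fold change of Masp1 was 0.096 (SE 0.21). Mbl1, a lectin that starts the lectin pathway, was at 0 in every library, and C6 and C9 of the terminal complex were at 0 in all but 1 library each.

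Regulators included the most abundant complement-related transcript of these libraries. Clu, clusterin, which blocks the terminal complex and is a major astrocyte protein, was at 10889, 11055 and 11780 TPM in PLX5622 1, 2 and 3, against 10121, 9816 and 10530 TPM in control 1, 2 and 3. Its groups did not overlap, as for 2534 (19.4%) of tested genes in that direction. The difference of 0.15 ± 0.15 (log2(TPM + 1), SE) was not called (limma adjusted p = 0.533), and the authors' deposited log2 fold change was −0.021 (SE 0.16). Cr1l, the mouse cell-surface regulator Crry that limits C3 cleavage, was steady at 31.2, 36.1 and 34.7 TPM with the PLX5622 label, against 34.0, 30.9 and 31.4 TPM with the control label. Sez6l2, Sez6, Susd4 and Sez6l, complement-inhibiting proteins of neurons, averaged 83.3, 19.3, 16.1 and 16.3 TPM with the PLX5622 label, against 80.2, 24.5, 19.4 and 18.9 TPM with the control label. Of the 20 regulators 11 were tested, 0 were called, 5 were positive and the median was −0.17.

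Of the 10 listed receptors 2 were tested and 0 called by label, with a median of 0.56 on the log2(TPM + 1) scale, while the authors' deposited table had 9 of them negative and 1 called. Itgam, Itgb2, C3ar1 and C5ar2, which myeloid cells carry, stayed under 1 TPM and were highest in control 1 and control 2. C5ar1 was also highest in control 1, at 0.114 TPM, and at 0 in control 3. PLX5622 3 came next for C5ar1 at 0.0462 TPM, above control 2 at 0.0349 TPM. Other listed myeloid receptors had a different order: Itgax was highest in control 3 at 0.0424 TPM, and Vsig4 in PLX5622 3 at 0.0414 TPM. Itgam, the alpha chain of complement receptor 3, was at 0.112, 0 and 0.254 TPM in PLX5622 1, 2 and 3, against 0.707, 0.776 and 0.0292 TPM in control 1, 2 and 3. It was the only listed complement gene that the authors' deposited table called, with a log2 fold change of −3.78 (SE 0.79, DESeq2 adjusted p = 0.00424). C3ar1, C5ar2 and Itgb2, the receptors of the C3 and C5 fragments and the beta chain of the integrin, had deposited log2 fold changes of −3.99, −5.72 and −2.30 that were not called; these were picked after their values were seen, and all stayed under 0.5 TPM. Lrp1 and Calr, which other brain cells express and which take part in uptake of C1q-coated material, were the only receptors tested by label. They differed by 0.71 ± 0.28 and 0.41 ± 0.16 on the log2(TPM + 1) scale (SE, limma adjusted p = 0.205 for both). Their deposited log2 fold changes were −0.16 (SE 0.34) for Lrp1 and 0.13 (SE 0.23) for Calr.

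**Figure D5:**
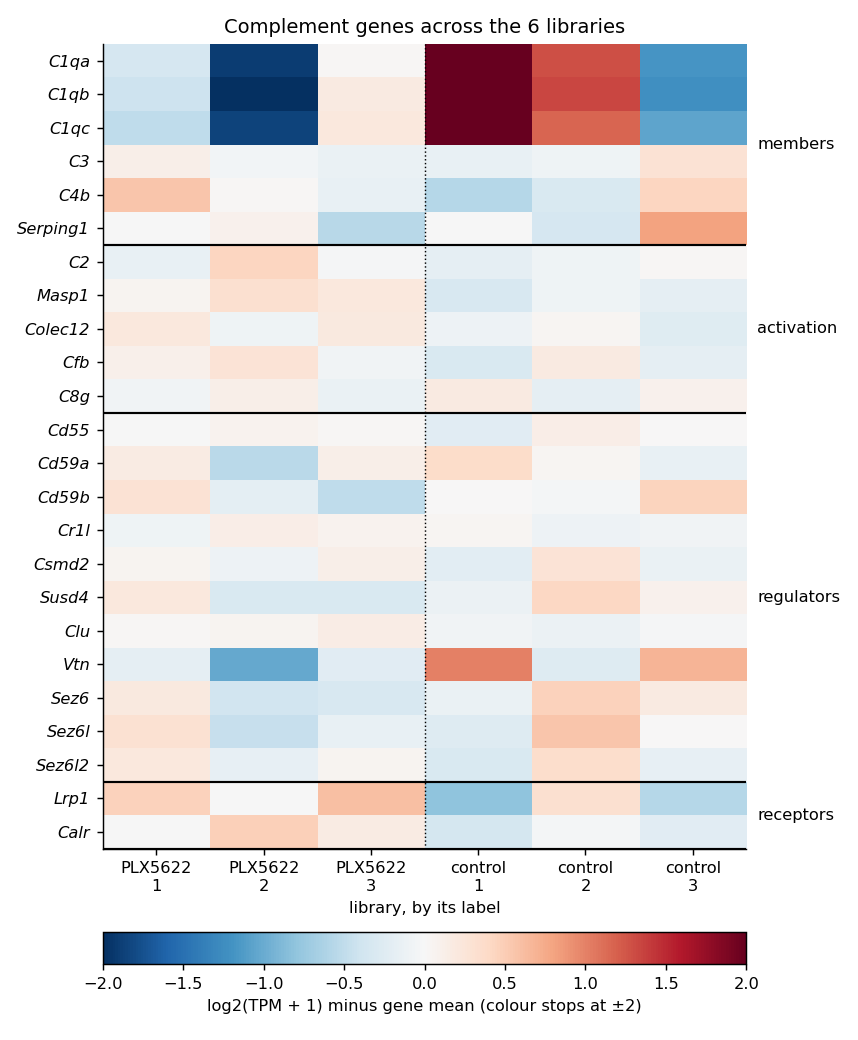
Deviation of the 6 members and of the tested genes of the complement activation, regulator and receptor lists from their own means, in log2(TPM + 1) (colour, which stops at ±2), by library (columns, PLX5622 left). The C1q rows run from PLX5622 2 (lowest) to control 1 (highest), and in control 3 they are below their means.

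Genes that share the C1q domain but not its role in complement were not called by label. C1ql1 and C1ql2, synaptic organizers of neurons, averaged 24.4 ± 2.695 and 39.6 ± 20.7 TPM with the PLX5622 label and 27.6 ± 2.51 and 36.7 ± 12.7 TPM with the control label (SD, n = 3 each). C1qtnf4 was at 109, 57.1 and 62.2 TPM in PLX5622 1, 2 and 3, against 162, 126 and 143 TPM in control 1, 2 and 3, and its difference of −0.96 ± 0.23 (log2(TPM + 1), SE) was not called (limma adjusted p = 0.205). C1qtnf12 differed by −0.23 ± 0.15. C1qtnf4 in control 3 was above all 3 PLX5622-labelled libraries. Its groups did not overlap, as for 1229 (9.39%) of tested genes in that direction. In the authors' deposited table the log2 fold change of C1qtnf4 was −0.28 (SE 0.42). Of 20 relatives 11 were tested, 0 were called, 6 were positive and the median was 0.014.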

How the data were processed

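The TPM table was deposited by the authors, and each of its 6 columns sums to 1000000. According to the submitters' processing notes, the tools behind the authors' values were DESeq2 1.32.0 under R 4.1.0, Subread 2.0.1 with featureCounts, and STAR 2.7.10a, on build mm39. Annotation, gene lengths and filters are not given there.

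The authors' deposited table of the diet comparison holds a signal per gene (baseMean), log2 fold changes with their SE, a score (the test statistic) and raw and adjusted p-values. It does not name its numerator.

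Differences by label were fitted on log2(TPM + 1) by limma 3.58.1 (R 4.3.3), letting the prior variance follow the mean, over the 13084 genes whose mean reached 1 TPM, two-sided, with Benjamini-Hochberg adjustment over all of them and a threshold of 0.05. The step was tested on simulated data. TPM keeps no depth, so no counting interval is given. The labels call the libraries biological replicates. The limma p-values set the difference between label means against the spread among libraries of the same label, 3 in each. Alternatives were a pseudocount of 0.1, no filter, size factors, each library left out, both libraries numbered 3 left out, a replicate block, and a loess correction on exon length from GENCODE M21 (97.8% of tested genes matched). Members, lists and tests were chosen with earlier results of these data known. Named were the 6 members, listed complement and C1q-domain genes averaging 10 TPM or more or called, signal-list genes averaging 0.1 TPM or more, the 4 highest reactive astrocyte genes, and the 3 genes closest to each member in pattern; others were chosen after their values were seen. Promoter sequences are from RefSeq (GRCm38.p6), where 3 of the 6 members matched. A listed marker gene is not reported here.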

Additional observations from a re-analysis of the deposited data

How the results depend on the processing

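Over the alternatives by label, the count of complement members called stayed at 0, except that it was 3 (the C1q chains) without both libraries numbered 3. That setting called 14 genes in all, against 0 with all libraries, and the authors' deposited comparison called 14. Leaving out a single library gave between 0 and 3754 called genes, with 3754 without control 2, 36 without PLX5622 1 and 0 without any of the other 4. None of the complement members was called in any of these cases, and the other listed complement genes were not counted there. The cause of this range was not tested. Leaving out a library moved the log2 difference of C1qa between −2.43 and −0.79, of C1qb between −2.57 and −0.83, of C1qc between −2.32 and −0.77, of C4b between 0.077 and 0.58, and of Serping1 between −0.56 and 0.0086. Serping1 turned positive without control 3 (0.0086), without both libraries numbered 3 (0.21) and in the authors' deposited table (0.72). C3 turned positive in the authors' deposited table (0.61), and C4b turned negative per 1000 TPM of the astrocyte list (−0.21). Deviations of same-numbered libraries from their label means correlated at −0.033, −0.272 and −0.147 across 13084 genes. With 3 libraries per label and the headings of control 3 and PLX5622 3 in doubt, this cannot show whether replicate numbers pair the libraries. With the replicate block 0 genes and 0 complement genes were called. Low levels limit the C1q chains in PLX5622 2, and C3 lies under the minimum of 1 TPM.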
